A study of Mus musculus with 10 samples.

Results

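The genes described here are the autosomal zinc finger genes that the mouse annotation names Zfp followed by a number. Members are all such genes other than Zfp42 that lie off chromosomes X, Y and 16, span under 500000 bases, and had a mean total count of 50 or more over the 10 libraries. Of 24386 genes in the deposited tables, 356 carried a Zfp number, 341 met the parts of the rule on name, chromosome and span, and 292 also met the count minimum. Just outside the minimum were Zfp658, Zfp30 and Zfp524 with mean counts of 48.6, 43.5 and 41.7, and just inside were Zfp558, Zfp319 and Zfp72 with 50.4, 50.5 and 51.9. The 292 members lay on 18 chromosomes. A cluster was defined as at least 3 members in a run of Zfp genes with gaps of less than 500 kb, which gave 25 clusters with 171 members, and the other 121 members are called scattered.

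Zinc finger proteins of the C2H2 type read DNA through tandem fingers, each a short fold around a zinc ion that contacts a few bases. Many carry an amino-terminal KRAB domain, which recruits the corepressor TRIM28 (KAP1) and through it the histone methyltransferase SETDB1, so that bound DNA is packed into heterochromatin marked by H3K9me3. In mouse embryonic stem (ES) cells these KRAB proteins are known for silencing endogenous retroviruses and for keeping DNA methylation on imprinted genes, and their genes multiply in clusters by tandem duplication.

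The libraries come from TT-seq (transient transcriptome sequencing), which purifies and sequences the RNA that cells make during 5 min with 0.5 mM 4-thiouridine. The cells were TX1072, a single female hybrid ES cell line of genotype WT and strain CAST / C57BL/6, grown with LIF and the 2 kinase inhibitors of 2i medium. Doxycycline (DOX, 1 µg/ml) induces the endogenous Xist gene of the C57BL/6 (B6) X chromosome, and the 5 groups had 0, 4, 8, 12 or 24 h of DOX, with 2 replicates each. All groups carry the inducible Xist allele and no group received DOX without inducible Xist, so Xist, DOX and the longer time in culture cannot be told apart. The study's legends describe its TT-seq duplicates as biological, and the labels do not tie a replicate number to a separate culture, so p-values measure the spread between these libraries.

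Total counts ran from 18809046 to 22274929 per library, and 49.2% to 52.8% of them were assigned to the B6 or the castaneus (Cast) allele by strain-specific bases. The lowest share, 49.2%, was that of 0 h replicate 1, and the next lowest was 51.7% in 4 h replicate 1. Xist lay at 1.41 and 1.53 CPM (the count scaled to library size) at 0 h and at 329 CPM or more in every later library. The 7 ES cell markers summed to 2587 to 2845 CPM per library, although Sox2 was listed at 0 throughout, while lists of primitive endoderm, primed epiblast, trophoblast and fibroblast markers summed to at most 24.0 CPM. The trophoblast list lay at 20.2 to 24.0 CPM at 0 h and at 13.6 to 14.1 CPM at 24 h, led by Tfap2c. Its part in the changes with time was not tested. The 0 h replicates differed from each other more than other pairs, with a chi-square per degree of freedom of 9.14 against at most 4.98.

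Sequence shows how alike some of these genes are. The part of this likeness in the counts and the allele calls below was not tested. The first pair is a stretch of coding sequence for 1 zinc finger, from the first cysteine to the last histidine codon, in Zfp960 and its neighbour Zfp97 on chromosome 17. It is shown because these genes gave among the lowest B6 shares of the family. The second pair is the same kind of stretch in Zfp934 and its neighbour Zfp935 on chromosome 13. In each pair the first gene's stretch is its finger 2. That of the second gene is whichever of its fingers had the most identical bases, so the likeness shown is the highest found. All 4 are written 5′ to 3′ on the gene's strand from GENCODE transcripts on GRCm38, at chr17:17087587-17087649 and chr17:17144802-17144864 (plus strand, exon 4 of 4 in both) and at chr13:62518289-62518351 (exon 4 of 4) and chr13:62454752-62454814 (exon 3 of 3, both on the minus strand). Capitals mark bases that differ within a pair.
Zfp960: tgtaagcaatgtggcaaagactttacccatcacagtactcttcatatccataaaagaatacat
Zfp97: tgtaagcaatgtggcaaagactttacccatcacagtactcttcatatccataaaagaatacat
Zfp934: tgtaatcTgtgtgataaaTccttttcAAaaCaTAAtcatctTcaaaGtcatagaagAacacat
Zfp935: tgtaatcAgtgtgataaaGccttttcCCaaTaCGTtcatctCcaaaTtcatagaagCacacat
Zfp960 and Zfp97 were identical over the 63 bases, and Zfp934 and Zfp935 shared 52 of 63. The 63 bases of Zfp960 or Zfp97 alone have at least 2 equally good places in the genome. The paper's TT-seq reads were paired and longer than this stretch, so a read pair can also cover bases outside it. The authors kept only reads that aligned uniquely.

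The promoters of Zfp970 and Zfp971 were also compared, and no other pair of promoters was. RefSeq promoters (250 bases before to 50 after a start, build GRCm38.p6) were found for 248 of the 292 members, 305 promoters in all. Those of Zfp970 at chr2:177464492-177464791 and Zfp971 at chr2:178023034-178023333, both on the plus strand of chromosome 2, are shown because these genes had the highest total counts of the chr2 b cluster and both rose at 24 h in a model described below. Capitals mark bases with no identical partner when the promoters are aligned, including the ends where the windows are offset.
Zfp970: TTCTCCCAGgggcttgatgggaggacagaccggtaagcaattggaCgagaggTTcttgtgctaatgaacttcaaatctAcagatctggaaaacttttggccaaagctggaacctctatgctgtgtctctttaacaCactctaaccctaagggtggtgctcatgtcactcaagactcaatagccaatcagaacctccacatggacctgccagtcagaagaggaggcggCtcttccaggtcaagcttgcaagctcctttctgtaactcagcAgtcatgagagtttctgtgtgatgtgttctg
Zfp971: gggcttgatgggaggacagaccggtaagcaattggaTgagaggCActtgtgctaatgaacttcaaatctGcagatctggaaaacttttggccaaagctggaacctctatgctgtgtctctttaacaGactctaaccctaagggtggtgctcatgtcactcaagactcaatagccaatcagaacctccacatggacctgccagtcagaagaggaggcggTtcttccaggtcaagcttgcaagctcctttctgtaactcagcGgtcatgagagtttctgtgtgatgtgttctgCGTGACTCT
The alignment matched 284 of 309 columns (91.9%). The dinucleotide CG, which reads the same on both strands, occurred 3 times in the Zfp970 promoter and 4 times in that of Zfp971. Over the family the median was 14 per promoter and 67.2% held 10 or more, against a median of 7 and 43.5% over all 32851 RefSeq promoters. Those belong to 27025 genes with no count minimum, whereas members passed one. The part of that minimum in the difference was not tested. Promoters of KRAB members had a median of 10, and those of members without a KRAB match had 21.

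Zinc fingers and KRAB domains were counted by pattern in the longest reading frame of GENCODE coding transcripts, which 290 members have. The median member had 11 fingers, and 180 members matched a KRAB pattern. KRAB members had a median of 12 fingers and other members 7. Of the 171 clustered members 140 had a KRAB match, and of the 121 scattered members 40 had. Members called KRAB genes are those with a match, and genes that the patterns miss were not sought.

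Nascent output was compared between genes as CPM per kb of the counted span, a level per length. The members' median was 1.40 CPM per kb. All 14019 autosomal genes tested had a median of 0.994, but the rule's count minimum leaves out low genes, and the 10559 of them that met the same minimum, span and chromosome limits had a median of 1.46. KRAB members had a lower median (1.27) than the others (1.92). The highest was Zfp57, a KRAB protein that keeps methylation on imprinted genes, at 24.0 CPM per kb. Zfp207, a spindle assembly factor also called BuGZ, followed at 21.0. Zfp936, a KRAB gene of the chr7 g cluster, had 20.8, with a counted span that is 0.186 of its GENCODE gene. Zfp706, which encodes a small protein with 1 finger, had 14.5, and Zfp553 had 12.0. By total count alone the first was Zfp982 at 1486 CPM. Its counted span of 337.6 kb was 16 times its GENCODE gene and, by the GENCODE annotation, takes in the whole of Zfp978 and Zfp988 on the same strand. This count therefore cannot be ascribed to Zfp982 alone. For 269 members the counted span lay within 0.5 to 1.5 times the GENCODE gene, for 4 it was longer (Zfp433, Zfp830, Zfp869, Zfp982), and for 19 it was shorter.

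Among KRAB genes with known targets, Zfp568, which silences a placental Igf2 transcript, had 5.86 CPM per kb. Zfp809, which recognises a retroviral primer binding site, had 7.09. Zfp445, a second guardian of imprints, had 3.84, and Zfp932, which represses endogenous retroviruses, had 2.69. Zfp110, which binds the neurotrophin receptor p75NTR and has a KRAB match, had 4.75. Among members without a KRAB match, Zfp281, a regulator of the exit from naive pluripotency, had 11.6. Zfp296, a pluripotency-associated factor, had 3.93, and Zfp462, associated with heterochromatin, had 3.64. Zfp217, whose human counterpart is amplified in breast cancer, had 2.55, Zfp143, a factor bound at many promoters, 2.22, and Zfp335, needed by neural progenitors, 1.76. The known regulators Zfp36 and Zfp91 were not members, with a mean count of 24.5 for Zfp36 and a listed count of 0 in every library for Zfp91.

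Clusters differed in median output. Medians ran from 0.502 CPM per kb in chr15 b (3 members, 0.310 to 4.33) to 8.71 in chr4 a (3 members, 0.884 to 11.8). Those ranges overlap, and chr4 b was next with a median of 6.36. The largest cluster, chr17 a (21.0 to 23.6 Mb), had 22 members, 21 of them KRAB genes, with a median of 1.32 and a range from 0.236 to 9.54, the last for Zfp229. Chromosome 7 held 8 clusters with 61 members, and their medians lay between 0.508 (chr7 a) and 3.63 (chr7 g). Within a cluster the spread was wide. In chr7 f (29.8 to 30.2 Mb, 14 members) output ranged from 0.264 to 5.86, and in chr13 b (67.0 to 67.8 Mb, 18 members, all KRAB genes) from 0.326 for Zfp455 to 6.63 for Zfp459.

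The clusters chr2 b, chr4 a, chr4 b and chr13 a stood out in how few of their reads could be given an allele. The median member had 56.1% of its read pairs assigned, close to 58.9% for the autosomal genes tested. Of these, chr4 a (145.7 to 146.5 Mb), chr2 b (177.5 to 178.1 Mb), chr4 b (147.2 to 147.8 Mb) and chr13 a (62.1 to 62.6 Mb) had medians of 0.365%, 0.934%, 6.88% and 12.7%. They were the 4 clusters with a median below 15%, a boundary set after the values were seen. Of their 16 members 15 are KRAB genes, and 10 had under 10% of read pairs assigned. In the family 23 members (7.88%) were under 10%, against 4.63% of autosomal genes tested.

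Repeated sequence was common in these clusters and not confined to them. As a measure of how much a gene resembles others, each member's longest GENCODE transcript was cut into all its stretches of 75 bases. Those found in a transcript of another gene were counted. The paper's TT-seq reads were longer than these stretches, so a shared stretch need not leave a read pair without a unique place. The median member shared 0, and 29 members shared over 10%, of which 11 were among the 16 of the 4 clusters. Zfp960 and Zfp97, which lie outside these clusters, shared most, 76.8% and 75.3%. In chr4 a Zfp980 shared 57.1%, Zfp992 34.5% and Zfp981 22.9%, and in chr4 b Zfp534 shared 53.6%. On the same strand, Zfp991 overlaps 94.1% of the counted span of Zfp992, and stretches shared with overlapping genes were not scored. In chr2 b Zfp970 shared 33.4%, and Zfp971 shared 20.2%. Across the 292 members the share of repeated stretches and the share of allelic reads had a Spearman's rho of -0.35, a description over genes that are not independent of each other. Low allelic coverage also occurred in members with no shared stretch by this measure. It reads spliced transcripts only, so repeats within introns, which the counted spans include, were not tested. Zfp207 shared 0 of its stretches and had 0.101% of read pairs assigned, with 6 to 18 allelic read pairs against a mean total count of 9807, and Zfp672 shared 0 and had none assigned, which with 7416 read pairs allows up to 0.0405%. For Zfp971 0 of 7669 read pairs were assigned, which allows up to 0.0391%. These limits use a count of 3 and cover counting error only.

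**Figure D1:**
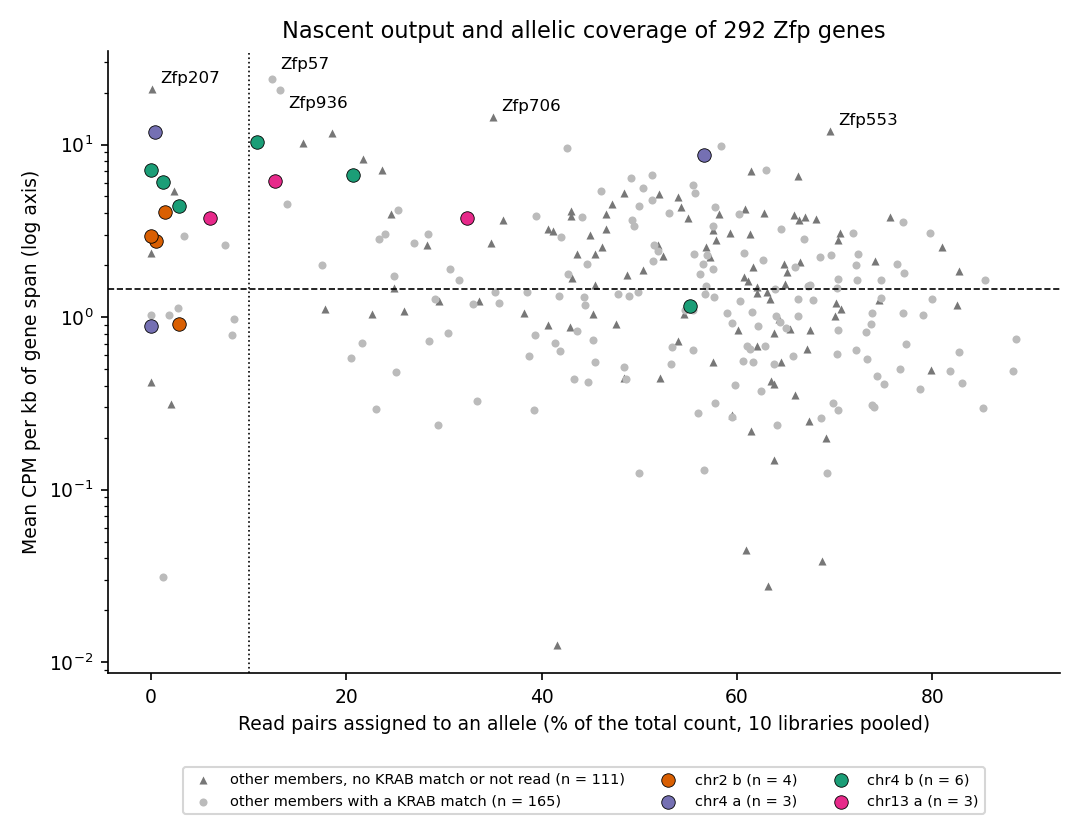
Each point is 1 of the 292 members, with the share of its read pairs assigned to an allele on the x axis (%, 10 libraries pooled) and its mean CPM per kb on a log y axis. The dashed line is the median of autosomal genes that met the same count, span and chromosome limits (1.46 CPM per kb), the dotted line marks 10% assigned, and 10 of the 16 coloured points from chr2 b, chr4 a, chr4 b and chr13 a lie left of it.

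The hybrid genome allows B6 and Cast transcription to be compared within each library, pooled over its cells. The B6 share, which the study calls the d-score, is the part of a gene's allele-assigned read pairs that carries B6 bases. In 277 members every library had at least 10 allelic read pairs, and the 15 others all had under 10% of read pairs assigned. Over the 277, pooled B6 shares had a median of 0.534 and an interquartile range of 0.489 to 0.575. The allele ratio was tested in edgeR with every library's B6 and Cast counts, as log2 B6 over Cast relative to the typical gene. Cast columns were scaled so that a log2 ratio of 0.124 in the raw counts counts as balance, and a B6-higher or Cast-higher gene departs from that.

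At an adjusted p under 0.05, 113 members were higher from B6 and 69 from Cast, 182 of 277 or 65.7%. Of 11543 autosomal genes 70.4% were called, 36.2% with B6 higher and 34.2% with Cast higher. Without chromosome 16, which the rule leaves out, 69.4% of 11150 were called, 37.3% with B6 higher and 32.2% with Cast higher, so the members' share of calls lay near the background. The split depended on the scaling, for members and other genes alike. With balance placed at equal raw counts, 160 members were higher from B6 and 49 from Cast, or 76.6% of calls with B6 higher in place of 62.1%. Over autosomal genes off chromosome 16 the same change gave 52.1% of genes with B6 higher and 21.2% with Cast higher, and moved B6-higher calls from 53.7% to 71.1% of calls. With the 0 h libraries alone 65 members were higher from B6 and 48 from Cast, where 25.1% and 20.7% of the same background were.

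A bias of at least 1 on the log2 scale was reached by 11 members toward B6 and 8 toward Cast, where the background was 7.1% and 5.33% of autosomal genes off chromosome 16. Together these were 19 of 277 members, or 6.86%. That background had no minimum on the total count. Of 10229 tested autosomal genes that met the members' count, span and chromosome limits, 612 were as biased toward B6 and 476 toward Cast. Together these were 10.6%. All 8 with Cast higher and 8 of the 11 with B6 higher had a KRAB match. These were 16 of the 169 tested members with a match (9.47%), against 2 of 107 without one (1.87%). Zfp783 has no coding transcript and is in neither group. Among the 11, the B6 share lay above 0.5 in 10 of 10 libraries, and among the 8 it lay below 0.5 in 10 of 10.

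Zfp783, which GENCODE lists as a transcribed pseudogene, had the highest B6 share, from 0.757 to 0.972 with a median of 0.907. It rested on 29 to 51 allelic read pairs per library, and 10.2% of its span overlaps Zfp956 on the same strand. Its log2 B6 to Cast ratio was 2.75 ± 0.20 (SE, adjusted p = 1.71e-26, edgeR quasi-likelihood test, n = 10 libraries). Zfp553, a gene of 12 fingers in chr7 h, had shares from 0.780 to 0.834 with a median of 0.808 and at least 661 allelic read pairs per library. Its ratio was 1.93 ± 0.04 (SE, adjusted p = 1.57e-79 in the edgeR fit). Zfp516, a partner of PRDM16 in brown fat, had shares from 0.734 to 0.772, the narrowest range of these, on 1428 to 1795 read pairs. No library of any of these genes came near equal counts.

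Zfp995 in chr17 a had shares of 0.712 to 0.810, Zfp28 in chr7 a 0.677 to 0.831, and Zfp558, just above the count minimum, 0.593 to 0.857 on only 20 to 45 read pairs. In chr4 a Zfp981 was the exception to poor coverage, with 56.6% of read pairs assigned and shares of 0.679 to 0.706 on 3285 to 4223 read pairs. Its neighbour Zfp980 had 0.365% assigned and a log2 ratio of -0.92 ± 0.19 (SE, edgeR fit), called toward Cast on as few as 14 allelic read pairs per library.

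Toward Cast, the 4 lowest members were all poor in allelic reads. Zfp934 in chr13 a had shares of 0.147 to 0.236 with a median of 0.213, from 167 to 241 read pairs, and 6.06% of its read pairs were assigned. Its log2 ratio was -2.07 ± 0.08 (SE, adjusted p = 6.29e-53, edgeR fit). Zfp979 in chr4 b had shares of 0.0526 to 0.286 from 29 to 56 read pairs, with 1.23% assigned. Zfp960 had 0.141 to 0.273 with 7.54% assigned, and its neighbour Zfp97 had 0.175 to 0.371 with 8.49%. These genes shared 19.8% to 76.8% of their stretches with other genes. The part of read placement among such copies in these ratios was not tested.

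Another 4 members favoured Cast strongly while having 33.4% or more of read pairs assigned. Zfp455 had shares of 0.200 to 0.467, Zfp334 0.216 to 0.400, Zfp983 0.259 to 0.421 and Zfp248 0.225 to 0.432, with 0% to 4.70% of stretches shared. Their ranges lay below those of the B6-biased genes in every library. Left to members with at least 10% of read pairs assigned, an analysis chosen after the values were seen, 112 were higher from B6 and 63 from Cast, and 15 of the 19 strong biases remained.

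**Figure D2:**
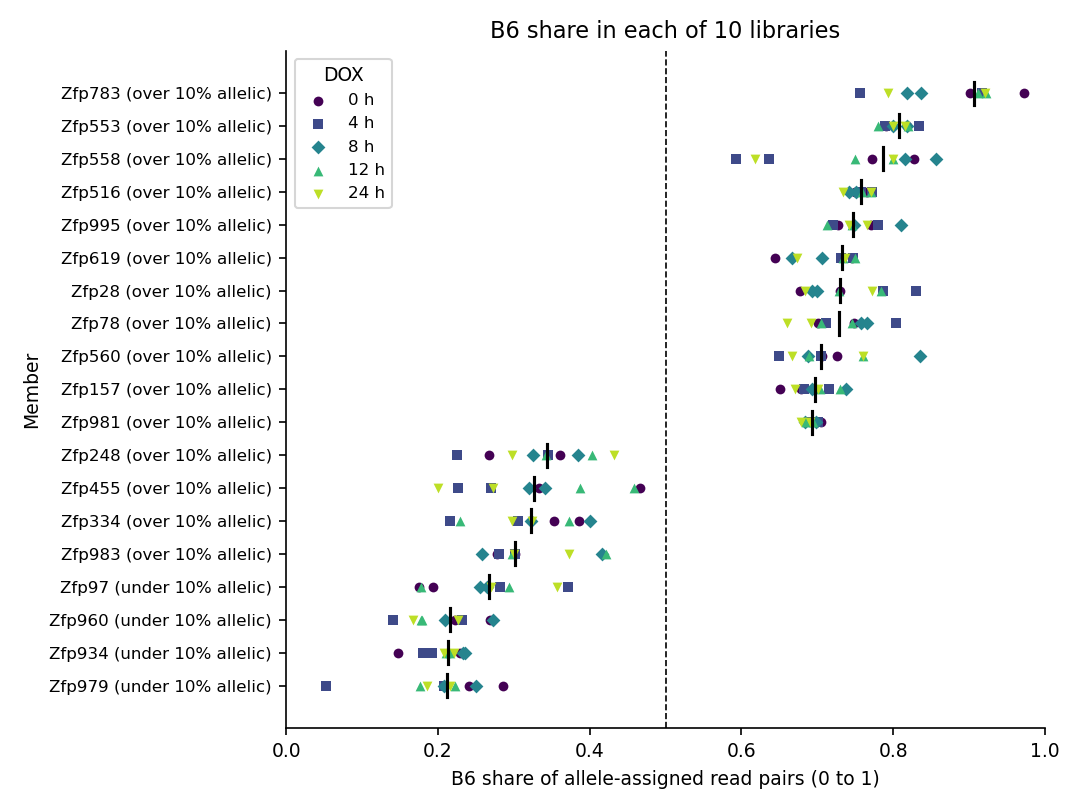
B6 share of allele-assigned read pairs (x axis, 0 to 1) in each of the 10 libraries for the 19 members with a called log2 bias of at least 1, with a marker for each time of DOX, a black bar at the median and a dashed line at equal counts. All points of a gene lie on 1 side of 0.5, and the 4 lowest medians belong to the members with under 10% of read pairs assigned.

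Among members with known roles, biases were smaller. Zfp281 had a B6 share of 0.448 ± 0.032 (SD, n = 10 libraries) and Zfp462 one of 0.460 ± 0.007, both called toward Cast, and so was Zfp335 at 0.453 ± 0.036. Zfp57 at 0.539 ± 0.024, Zfp217 at 0.543 ± 0.015, Zfp110 at 0.546 ± 0.015 and Zfp296 at 0.578 ± 0.047 were called toward B6. Zfp706 reached 0.383 ± 0.023 and Zfp936 0.652 ± 0.014. The calls of Zfp568 (0.511 ± 0.014) and Zfp809 (0.505 ± 0.014) as Cast-higher hold only against the scaled balance, since both had more B6 than Cast reads. Zfp445, Zfp143 and Zfp932 were not called, with shares of 0.512 ± 0.014, 0.519 ± 0.012 and 0.510 ± 0.037. Nearest to balance were Zfp574, Zfp131 and Zfp444, with log2 ratios of 0.00 ± 0.09, -0.01 ± 0.02 and -0.01 ± 0.04 (SE).

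By cluster, bias was mixed. The median B6 share of 22 of the 24 clusters with tested members lay between 0.5 and 0.6 or at its edge, and chr13 a, with 3 of 3 members toward Cast, had the lowest at 0.419. In chr5 (0.623, 3 members) 2 were called toward B6. Every tested member of chr15 b (0.579 to 0.648) and chr18 (0.575 to 0.594), 3 in each, was higher from B6. In chr17 a 8 were higher from B6, 7 from Cast and 7 were not called, and genes such as Zfp995 and Zfp983 lay at opposite ends, with pooled shares of 0.752 and 0.322.

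Total nascent counts changed little with DOX. At 4, 8 and 12 h no member passed an adjusted p of 0.05 in the edgeR fit of time on all 10 libraries, where 0.00713%, 0% and 0.171% of autosomal genes did. At an unadjusted p under 0.05 the same fit had 6, 13 and 34 members at these times, where 1.91%, 2.67% and 9.62% of autosomal genes passed, and DESeq2 called 0, 0 and 2 after adjustment. At 24 h 2 members fell and none rose, against 0.235% of autosomal genes lower, and an unadjusted p under 0.05 was reached by 21 members with a higher and 5 with a lower fitted value, against 4.76% and 3.32% of autosomal genes. The members' median log2 change was 0.01, 0.02, 0.01 and 0.04 at 4, 8, 12 and 24 h, against 0.00, 0.00, 0.00 and 0.01 for autosomal genes. Leaving out 1 library at a time moved the 12 h median between -0.04 and 0.05 and the 24 h median between 0.01 and 0.08. Both low ends came without 0 h replicate 1, and both high ends without 0 h replicate 2.

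Zfp608 had 3.40 and 3.37 CPM at 0 h, 3.83 and 3.89 at 4 h, 3.04 and 2.75 at 8 h, 2.14 and 2.22 at 12 h, then 1.93 and 1.75 at 24 h. Both 24 h libraries lay below every library of 0, 4, 8 and 12 h. The fitted log2 change at 24 h was -0.87 ± 0.20 (SE, adjusted p = 0.0426, edgeR, n = 2 against 2 libraries). Zfp334 had 4.07 and 4.56 CPM at 0 h, 3.62 and 3.32 at 4 h, 3.83 and 3.61 at 8 h, 3.14 and 3.10 at 12 h, then 2.59 and 2.38 at 24 h, and its 24 h libraries were again below all others. Its change was -0.79 ± 0.19 (SE, adjusted p = 0.0489, edgeR). Both are low genes with 38 to 100 read pairs per library. Neither call held when p-values were adjusted over autosomal genes alone (adjusted p = 0.153 for Zfp608 and 0.165 for Zfp334), nor with any 1 of the 10 libraries left out.

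The replicate numbers paired the libraries in total counts, and a fit with the number as a block called more members. At 12 h 9 members rose and 3 fell, against 2.0% and 1.11% of autosomal genes. Of the 10559 autosomal genes that met the same count, span and chromosome limits, 254 rose and 136 fell. At 24 h 7 members rose and 5 fell, against 1.93% and 1.38% of autosomal genes, and 232 and 165 of the 10559. At each of these times the 12 members called were 4.11% of the 292. The genes that fell at 24 h were Zfp608 and Zfp334 again, Zfp423, a factor of adipocyte commitment (log2 -0.48 ± 0.08, adjusted p = 3.56e-05 in the blocked edgeR fit), Zfp536, a neuronal repressor, and Zfp746. Zfp438 rose by 0.50 ± 0.09 (SE, adjusted p = 0.000224, blocked edgeR fit). It had 24.9 and 30.2 CPM at 0 h, 28.1 and 37.0 at 4 h, 33.8 and 33.7 at 8 h, 32.5 and 39.1 at 12 h, then 36.4 and 40.5 at 24 h. Within each replicate number the 24 h value exceeded the 0 h value, and across numbers the 0 h and 24 h groups did not overlap. Without the block its adjusted p was 0.119 in edgeR, 0.0139 in edgeR with no filter on low counts and 0.0649 in DESeq2.

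Other large fitted changes at 24 h without the block did not pass the test. Zfp455 had 3.59 and 5.06 CPM at 0 h and 6.41 and 6.06 at 24 h, a log2 change of 0.53 ± 0.19 (SE). Zfp661 had 4.93 and 3.51 CPM at 0 h and 4.98 and 6.51 at 24 h, a change of 0.47 ± 0.20 that lay between 0.24 and 0.71 with single libraries left out. The lower 24 h library of Zfp661 lay just above the higher 0 h one. Zfp536 had 4.17 and 4.92 CPM at 0 h and 2.39 and 3.37 at 24 h, a change of -0.64 ± 0.24. The known regulators stayed within ± 0.30, from 0.30 ± 0.21 for Zfp296 to -0.01 ± 0.08 for Zfp462, with Zfp57 at 0.15 ± 0.10, Zfp568 at 0.10 ± 0.07 and Zfp809 at 0.05 ± 0.08. None of them passed with or without the block.

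**Figure D3:**
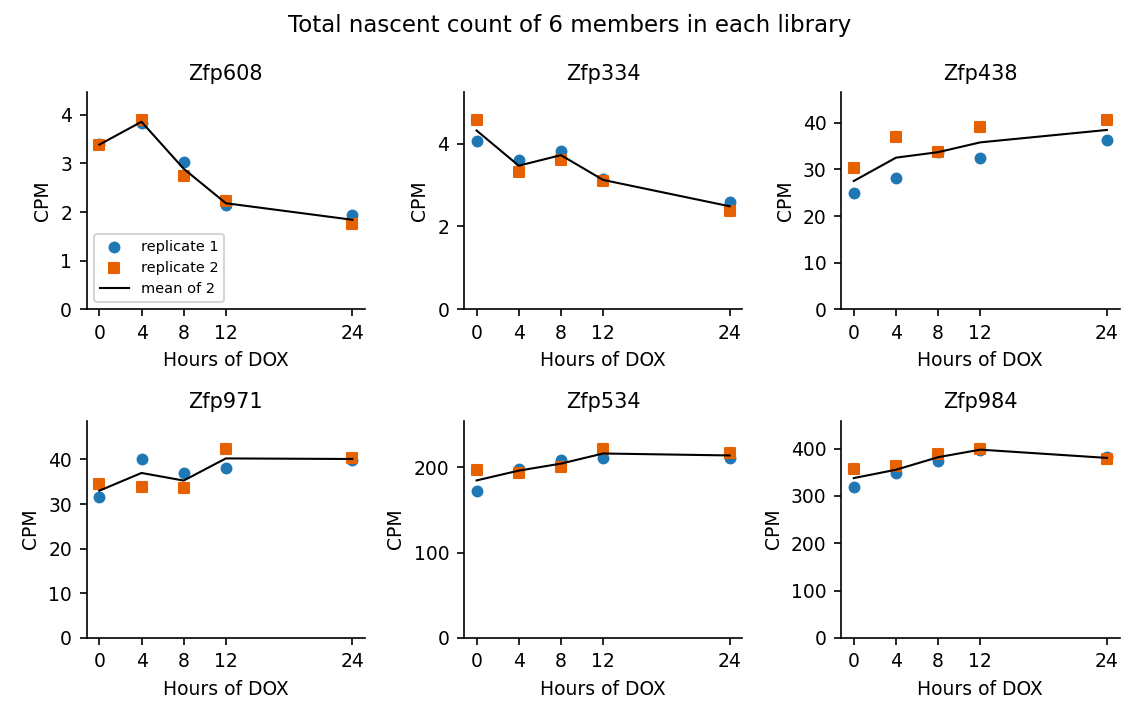
CPM (y axis, from 0) against hours of DOX for 6 members, with replicate 1 as circles, replicate 2 as squares and a line through the mean of 2. Zfp608 and Zfp334 end at their lowest values at 24 h, and Zfp438, Zfp971, Zfp534 and Zfp984 lie higher in both 12 h and both 24 h libraries than in either 0 h library.

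Higher counts gathered in the clusters that are poor in allelic reads. The 4 clusters with a median log2 change above 0.15 at 12 h were chr2 b (0.20), chr4 a (0.22), chr4 b (0.23) and chr13 a (0.23), the same 4 as above. At 24 h their medians were 0.25, 0.18, 0.16 and 0.15. Over their 16 members the median was 0.09, 0.13, 0.22 and 0.18 at 4, 8, 12 and 24 h, with 16, 15, 16 and 16 members above 0, whereas over the other 276 members it was 0.00, 0.01, 0.00 and 0.03. These clusters were picked after the values were seen, the 4 times share the 0 h libraries, and no test was made of them as a set.

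With 0 h replicate 1 left out, the 16 members' median was -0.01, 0.06, 0.11 and 0.10 at these times, with 6, 14, 14 and 13 above 0. With 0 h replicate 2 left out it was 0.19, 0.22, 0.28 and 0.28, with all 16 above 0 at each time. The other 276 members moved the same way, with medians of -0.03, -0.03, -0.05 and 0.00 without replicate 1 and of 0.05, 0.05, 0.04 and 0.08 without replicate 2. The size of the 16 members' change, and its direction at 4 h, thus depended on which 0 h library was used, while their median lay above that of the other members at every time with either one left out.

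The 16 members of these clusters had a median of 171 CPM, against 22.6 CPM for all 292 members. The part of this depth in the calls was not tested. In the blocked fit 6 of the 9 members that rose at 12 h belonged to these clusters. They were Zfp984 (0.29 ± 0.07), Zfp534 (0.28 ± 0.07) and Zfp979 (0.31 ± 0.08) of chr4 b, Zfp808 (0.28 ± 0.07) and Zfp934 (0.23 ± 0.07) of chr13 a, and Zfp971 (0.34 ± 0.09) of chr2 b, each with its SE. The other 3 were Zfp438, Zfp800 and Zfp292. At 24 h 4 of 7 did: Zfp971 (0.29 ± 0.09), Zfp970 (0.24 ± 0.07), Zfp534 (0.22 ± 0.07) and Zfp935 (0.30 ± 0.07), beside Zfp438, Zfp960 (0.29 ± 0.07) and Zfp459 (0.29 ± 0.08). In the edgeR fit without the block none of these rises passed. DESeq2, also without it, called Zfp808 and Zfp984 at 12 h, and edgeR with 0 h replicate 2 left out called Zfp984, Zfp534, Zfp979 and Zfp980 higher at 12 h and Zfp534, Zfp459 and Zfp980 at 24 h.

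Single values show the size. Zfp984 had 319 and 356 CPM at 0 h, 348 and 363 at 4 h, 375 and 389 at 8 h, 396 and 400 at 12 h, then 382 and 379 at 24 h. All 8, 12 and 24 h libraries lay above both 0 h libraries. Zfp534 started from 172 and 197 CPM at 0 h, passed through 198, 194, 209 and 200 at 4 and 8 h, and its 12 h libraries reached 211 and 222, with 211 and 217 at 24 h. For Zfp971 the 0 h libraries had 31.6 and 34.4 CPM, those of 12 h 38.1 and 42.4, and those of 24 h 39.9 and 40.3. Zfp534 shared 53.6% of its stretches with other genes, Zfp984 38.0% and Zfp971 20.2%. The part of reads from related copies in these counts was not tested.

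**Figure D4:**
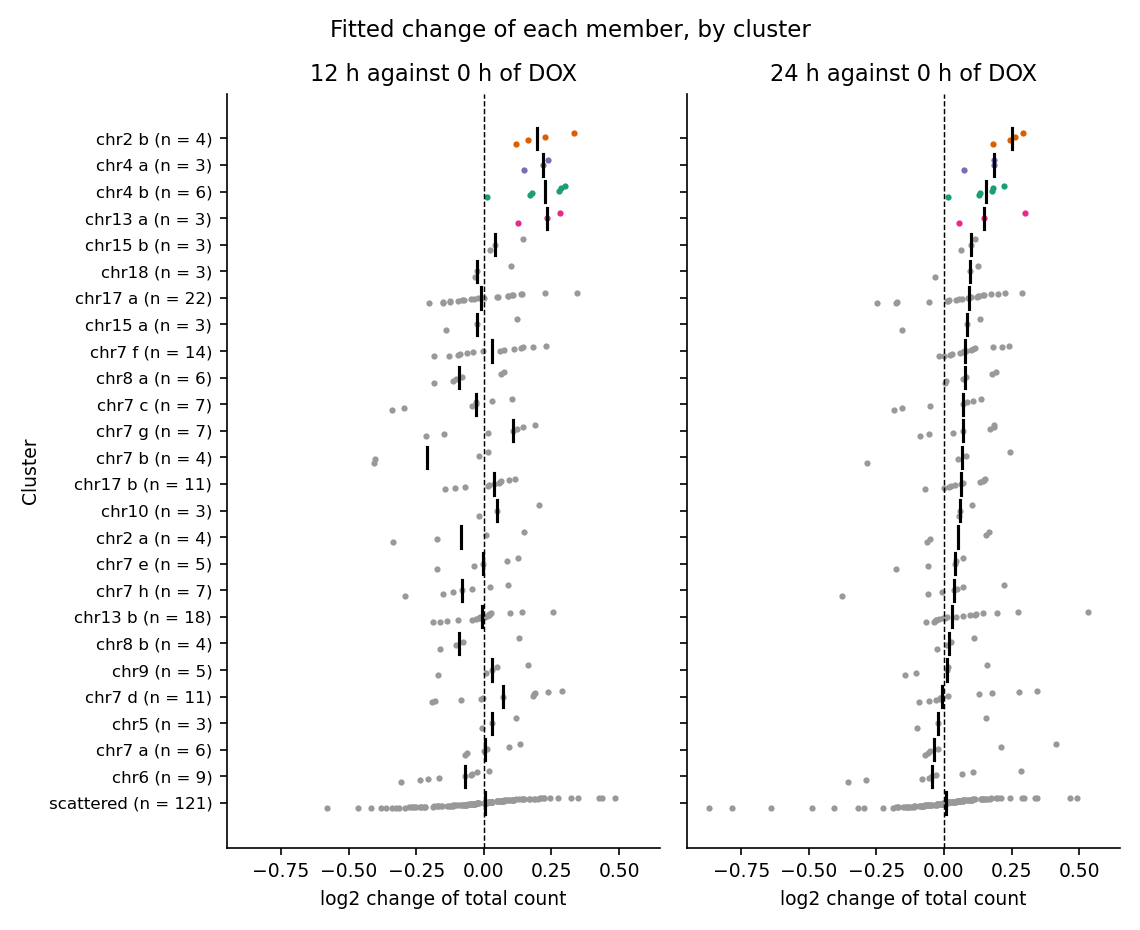
Fitted log2 change of total count (x axis) at 12 h and 24 h against 0 h for each member (points), by cluster (y axis, ordered by the 24 h median) with a black bar at the cluster median. The coloured clusters chr2 b, chr4 a, chr4 b and chr13 a have all 16 members above 0 in both panels, and the 121 scattered members centre near 0.

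Of the other clusters, chr17 a had 18 of 22 members above 0 at 24 h (median 0.09) and 11 of 22 at 12 h (median -0.01), and chr7 f had 13 of 14 at 24 h (0.08) and 7 of 14 at 12 h (0.03). Over all 25 clusters the 24 h median lay above 0 in 21 and below 0 in 4 (chr5, chr6, chr7 a and chr7 d). No member of chr17 a or chr7 f passed the test at 24 h, with or without the block. For the whole family 185 of 292 members lay above 0 at 24 h, against 7595 of 14019 autosomal genes. Without 0 h replicate 1, 13 of the 16 members of the 4 clusters poor in allelic reads and 141 of the other 276 did. Without 0 h replicate 2, 16 and 184 did. The family's lean above 0 thus depended on which 0 h library was used. With all libraries KRAB members had a 24 h median of 0.06, against 0.01 for those without a match.

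The B6 share of the members did not pass the test at any time. At an adjusted p under 0.05 none of the 277 members was called at 4, 8, 12 or 24 h against 0 h, where 0.00866%, 0.0693%, 0.173% and 0.364% of autosomal genes were. At an unadjusted p under 0.05 edgeR had 22, 13, 13 and 17 members, where 4.16%, 4.0%, 5.29% and 5.78% of autosomal genes passed, and DESeq2 also called 0 at each time after adjustment. Pooled over the family the B6 share was 0.535 in both 0 h libraries and 0.534 to 0.538 in the later 8.

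The smallest p-values at 24 h belonged to Zfp870, Zfp710 and Zfp937. Zfp870 had B6 shares of 0.464 and 0.551 at 0 h and 0.602 and 0.589 at 24 h, a log2 change in the allele ratio of 0.51 (adjusted p = 0.147, edgeR), and the spread between its 0 h libraries was larger than the distance from the higher of them to either 24 h library. Zfp710 went from 0.505 and 0.501 to 0.533 and 0.527 (adjusted p = 0.166, edgeR). Zfp937 went from 0.554 and 0.518 to 0.685 and 0.732 (adjusted p = 0.186, edgeR), on 50 to 83 allelic read pairs per library. In all 3 the 24 h values lay above both 0 h values. With few allelic reads only large changes could be seen, and none could be sought in the 15 untested members, which include all 4 of chr2 b.

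The partners of KRAB proteins were measured alongside. All 20 genes of a list of TRIM28-pathway and heterochromatin factors were present, with outputs from 0.507 (Chd3) to 29.8 CPM per kb (Trim28). None of the 20 passed the test in total count at any time, with or without the block, and their log2 changes at 24 h ran from -0.24 for Chd3 to 0.15 for Cbx3 with a median of -0.01. Trim28, the KRAB corepressor, had -0.09 ± 0.12 (SE), and Setdb1, the H3K9 methyltransferase, 0.02 ± 0.07. In allele ratio 10 of 20 were called toward Cast and 5 toward B6. The 10 include Morc3 and Chaf1b on chromosome 16, and of the 18 off it 8 were called toward Cast and 5 toward B6, against the 32.2% and 37.3% given above. The H3K9 reader Mphosph8 (0.537) and the chromatin remodeler Smarcad1 (0.549) favoured B6. The remodeler Chd3 on chromosome 11 had the lowest B6 share (0.305), followed by Morc3 (0.349) and Chaf1b (0.388).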

How the data were processed

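TT-seq libraries were made at 5 times of DOX with 2 replicates each. The authors trimmed reads, aligned them to the strain-masked mm10 genome, kept uniquely aligned proper pairs, split them by allele with SNPSplit and counted them by strand over each gene's longest span with featureCounts 1.5.1. Their methods name STAR, whereas the submitters' processing notes name TopHat2 2.1.0. Scaling to spike-ins and removal of duplicates are not given in the sources used here. The deposited tables hold raw counts of all, B6 and Cast read pairs per gene. The authors also deposited the fraction of B6 counts, left empty under 10 allelic reads, and it matched the counts in every table. Deposited starts were read as 0-based.

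Here total counts were fitted with edgeR 4.0.16 in R 4.3.3 (quasi-likelihood test, filterByExpr, TMM, a term for time, all 10 libraries). Allele counts were fitted with an intercept per library and an allele term per time, using genes whose allelic reads numbered 10 or more in all libraries. Tests were two-sided, and adjusted p-values (Benjamini-Hochberg, threshold 0.05) cover all tested genes, X-linked ones included. DESeq2 1.42.0 and limma 3.58.1 served as alternatives. The fits were tested on simulated counts. Same-numbered libraries of different times deviated together in total counts (r = 0.142 to 0.281 over 10 pairs of times) and not in allele counts (r = 0.00 to 0.04), so the blocked fit is given beside the total counts. Replicates of a time had r of 0.9971 to 0.9978 in log2(CPM + 1). Genes named are those highest per kb, most and least biased, called or changed most at 24 h, and those with known roles, and others were named after their values were seen. The members and lists were chosen with earlier results of these data known.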

Additional observations from a re-analysis of the deposited data

How the results depend on the processing

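At 12 h the count of members called in total count, 0, became 12 with the replicate block, 2 with DESeq2, and 0 to 4 when single libraries were left out. The highest, 4, came without 0 h replicate 2 (Zfp534, Zfp979, Zfp980 and Zfp984). At 24 h the count of 2 became 12 with the replicate block, 4 with no filter on low counts (Zfp423 and Zfp438 beside Zfp608 and Zfp334), 1 with DESeq2 (Zfp423, while Zfp608 and Zfp334 had adjusted p-values of 0.225 and 0.221), 0 with limma-voom, 0 with adjustment over autosomal genes alone, and 0 to 4 without single libraries, again highest without 0 h replicate 2. The block that pairs libraries by number changed no count at 4 or 8 h. For the B6 share at 24 h the count of 0 became 1 without 0 h replicate 2 (Zfp870), and the range without single libraries was 0 to 1. At 4 and 8 h both counts remained 0 under every alternative, as did the share count at 12 h. In allele counts, where the numbers did not pair the libraries, the block gave 185 biased members in place of 182. The 0 h libraries alone gave 113, and the 19 strong biases became 11 with at least 50 allelic reads in every library, since fewer members were tested. Of the 12 strongly biased members named by rule, no alternative in which they were tested changed a direction or a call, and 6 of them (Zfp979, Zfp97, Zfp455, Zfp334, Zfp558 and Zfp783) were not tested under the minimum of 50. Changing the count minimum to 20 or 100, or the gap to 250000 or 1000000 bases, left the numbers of members and clusters within 1.5 times. Depth limits low members most: Zfp608 and Zfp334 had at most 100 read pairs in a library, and 45 of the 277 members tested had under 50 allelic reads in some library. The cause of these shifts was not tested.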
